A study of Salvia miltiorrhiza with 5 samples.

Results

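The unigenes described here were 38 zinc finger transcription factors of *Salvia miltiorrhiza* (Dan shen), a medicinal plant whose roots make tanshinones and phenolic acids. A unigene is 1 assembled transcript sequence, and the assembly held 55588 of them. Of the 375 unigenes that the study listed as transcription factors with higher levels after an elicitor, these 38 were the ones assigned to the families C2H2, C2C2-Dof, C2C2-GATA, C2C2-CO-like and C3H, apart from SmiContig4954. There were 21 C2H2, 10 C2C2-Dof, 3 C2C2-GATA, 2 C2C2-CO-like and 2 C3H unigenes. The listing had been made from the same libraries, by a more than 2-fold higher level in at least 1 elicited library than in the control. The study also required a false discovery rate (FDR) under 0.01. The fold changes over the control are therefore a description of the listed unigenes, and no test was made of the conditions. The families are the study's own annotation and were not checked here against sequence.

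RNA was sequenced from hairy roots, which are root cultures that grow from leaf pieces after a disarmed *Agrobacterium* has transferred genes of an Ri plasmid into them. All roots had been grown in shaken liquid medium and were 40 days old. Roots were treated with methyl jasmonate (MeJA), a hormone of the wound response given in ethanol, for 1 h (MeJA-1h) or 6 h (MeJA-6h), or with yeast extract (YE), a preparation that plant cells respond to as to a microbe, for 1 h (YE-1h) or 12 h (YE-12h). The control was untreated and was harvested at 0 h, so hours in culture and the ethanol cannot be told apart from the elicitor. The comparison was meant to find candidate regulators of tanshinone and phenolic acid synthesis. Each condition had 1 library, made from the mixed RNA of 3 replicate samples, and no difference below has a replicate check. The counted reads summed to between 15789097 and 20358510 in the elicited libraries and to 13395770 in the control.

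A zinc finger is a short protein fold held together by a zinc ion. C2H2 proteins, which hold the ion with cysteines and histidines, form a large plant family with both activators and repressors of stress and defence genes. C2C2-Dof proteins are found in plants and bind DNA with 1 finger held by cysteines, and in *Arabidopsis* a Dof protein that answers to wounding and MeJA is known as a regulator of indole glucosinolate synthesis. GATA proteins bind DNA at GATA sequences and are best known from responses to light and nitrogen. CONSTANS-like (CO-like) proteins carry B-box fingers and are known from the control of flowering and of light responses, while C3H proteins mostly bind RNA and set how long messages last.

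Levels are given as RPKM, the reads on a unigene scaled to a kilobase of its length and to the total reads of its library. A fold change is the ratio of the RPKM values of 2 libraries, and its 95% interval covers counting error alone. A 3-read level on a unigene of 1 kb was an RPKM of between 0.147 and 0.190 in the elicited libraries and of 0.224 in the control. The 38 unigenes had between 84 and 18351 reads over the 5 libraries, and only SmiContig9681 had as few as 3 reads in any library, which was the control. The highest RPKM of a unigene ranged from 3.37 for SmiContig21269 to 232 for SmiContig26309. Their median highest RPKM was 16.3, against 6.13 over all unigenes. In the control their median was 70.5 reads, against 75 over all unigenes. A highest value over 5 libraries is partly fixed by the listing, which required a rise over the control. The FDR limit of the listing is also met more easily with more reads, and its part in the difference was not tested.

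YE-1h was the library in which most of the zinc finger unigenes were high. More than 2-fold over the control were 13 unigenes in MeJA-1h (7.59% of all unigenes compared) and 18 in MeJA-6h (6.88%), and 27 in YE-1h (7.80%) and 6 in YE-12h (4.39%). All 38 passed 2-fold in at least 1 elicited library, against 15.4% of all unigenes, which is what the listing required. Under 0.5 of the control were 2 unigenes in MeJA-1h (12.2% of all unigenes) and 2 in MeJA-6h (13.5%), and 1 in YE-1h (8.00%) and 0 in YE-12h (7.22%). In RNA from whole roots, more cells with a transcript and more transcript per cell cannot be told apart. The median log2 fold change of the 38 was 0.68 (MeJA-1h) and 0.77 (MeJA-6h) with MeJA and 1.27 (YE-1h) and 0.43 (YE-12h) with YE, beside -0.28, -0.24, -0.16 and -0.16 over all unigenes in the same order. Scaling by TMM, a method that centres the bulk of unigenes, added 0.28, 0.24, 0.15 and 0.16 to every log2 fold change in these libraries. With TMM scaling the numbers over 2-fold were 18, 19, 29 and 9 of the 38 (10.4%, 9.43%, 9.41% and 5.83% of all unigenes) and the numbers under 0.5 were 2, 2, 1 and 0 (7.27%, 8.92%, 6.08% and 5.0%). The share of higher ones among all unigenes past either limit was then between 51.4% and 60.7%, against between 33.7% and 49.4% with library totals.

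**Figure D1:**
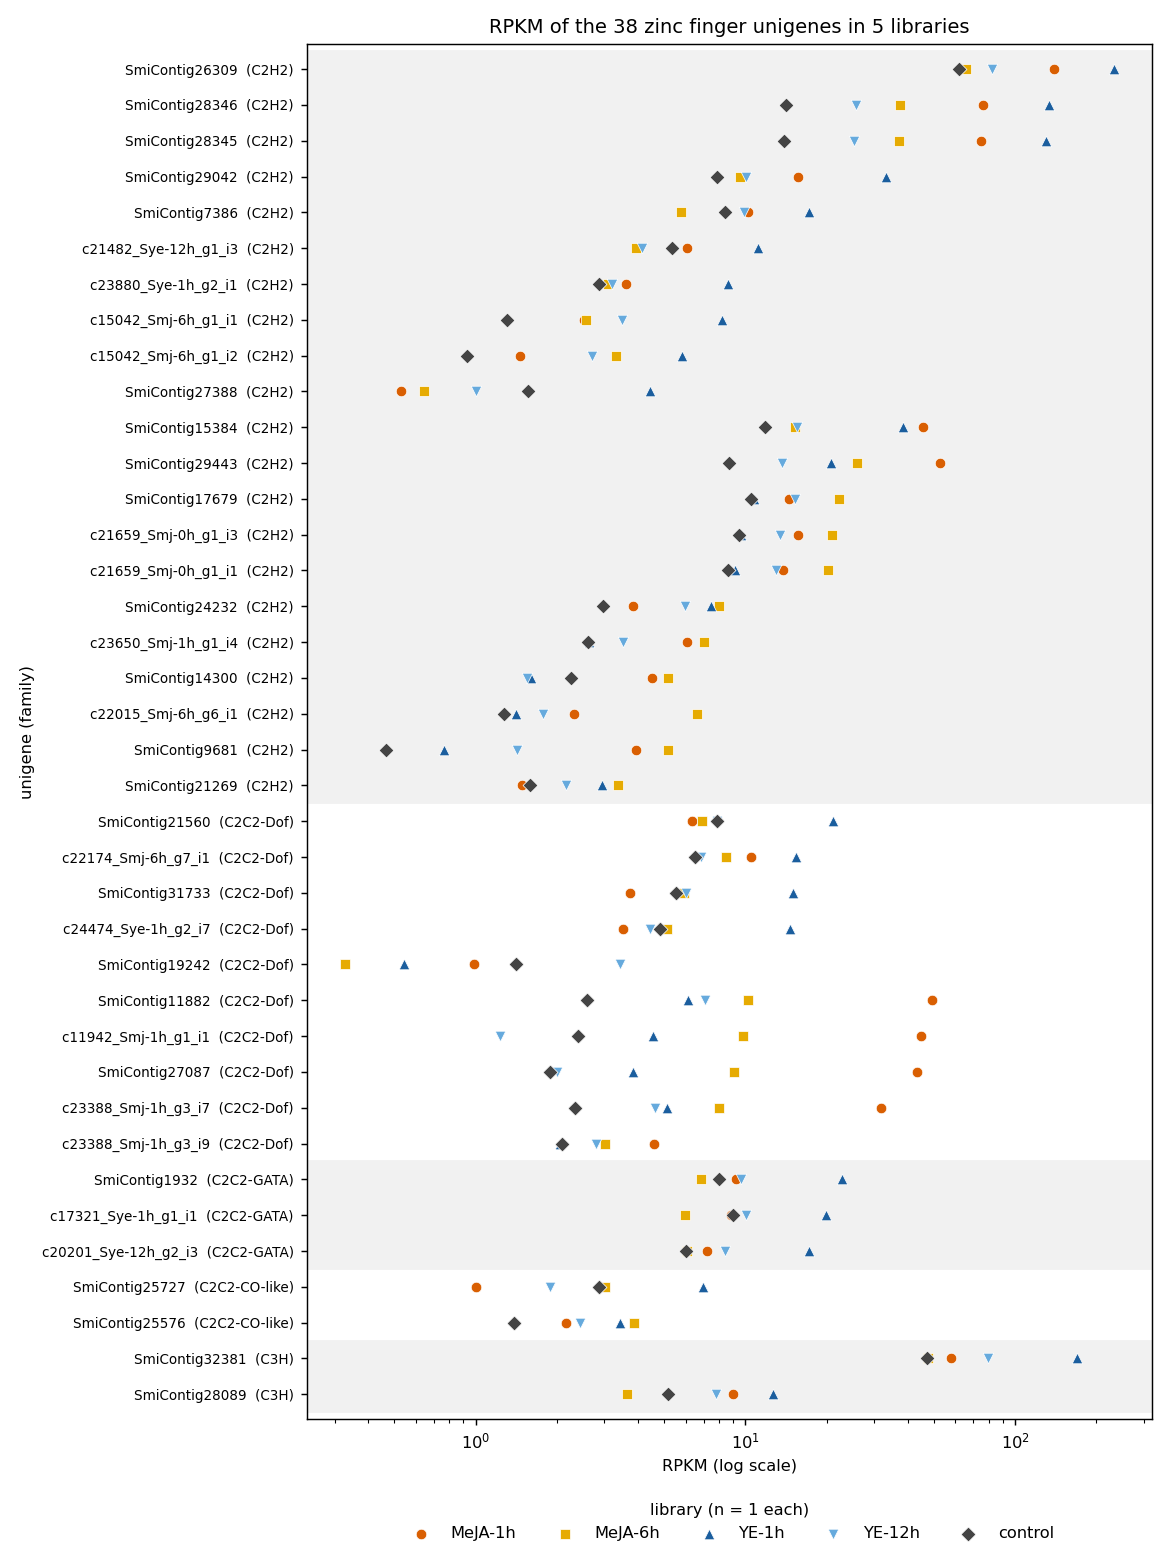
RPKM (log scale) of each of the 38 zinc finger unigenes in the 4 elicited libraries and the control, 1 library each, grouped by family. YE-1h holds the highest value of 20 unigenes (22.3% of all unigenes) and MeJA-6h of 10 (14.5%). MeJA-1h holds that of 7 (12.3%), YE-12h of 1 (14.0%) and the control of none (36.9%). The listing required a higher level than the control in some elicited library, so the control could not be the highest.

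The largest fold changes were among the C2C2-Dof unigenes. The family is described by the library of the highest value, a sorting made from these same values. SmiContig27087 had an RPKM of 43.1 at 1 h and 9.04 at 6 h of MeJA, and 3.82 at 1 h and 2.00 at 12 h of YE, against 1.88 in the control. SmiContig11882 had 49.0 at 1 h and 10.2 at 6 h of MeJA, and 6.15 at 1 h and 7.07 at 12 h of YE, against 2.58 in the control. Both were far higher in MeJA-1h than in any other library. For c11942_Smj-1h_g1_i1 the RPKM was 44.8 at 1 h and 9.82 at 6 h of MeJA, and 4.54 at 1 h and 1.23 at 12 h of YE, against 2.40 in the control. For c23388_Smj-1h_g3_i7 it was 31.9 at 1 h and 7.97 at 6 h of MeJA, and 5.12 at 1 h and 4.63 at 12 h of YE, against 2.34 in the control. MeJA-1h thus held 72.0% of the summed RPKM of SmiContig27087, 71.3% for c11942_Smj-1h_g1_i1, 65.3% for SmiContig11882 and 61.4% for c23388_Smj-1h_g3_i7.

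In MeJA-1h these 4 Dof unigenes were 22.9-fold (95% interval 13.6 to 42.7), 19.0-fold (12.7 to 29.6), 18.6-fold (12.2 to 32.3) and 13.6-fold (9.24 to 21.6) over the control for SmiContig27087, SmiContig11882, c11942_Smj-1h_g1_i1 and c23388_Smj-1h_g3_i7. No other zinc finger unigene reached 12-fold in any library. Their MeJA-1h values rested on 388 to 569 reads and their control values on 14 to 25 reads, and every interval lay above 2. By MeJA-6h the fold over the control was 4.80 for SmiContig27087, 3.97 for SmiContig11882, 4.09 for c11942_Smj-1h_g1_i1 and 3.40 for c23388_Smj-1h_g3_i7. The ratio of MeJA-6h to MeJA-1h was close to alike in all 4, at 0.210 for SmiContig27087, 0.209 for SmiContig11882, 0.219 for c11942_Smj-1h_g1_i1 and 0.250 for c23388_Smj-1h_g3_i7. In the pair most alike over the 5 libraries, the ratio of c23388_Smj-1h_g3_i7 to SmiContig11882 ran from 0.650 to 0.908. Whether the 4 share reads or stand for separate genes was not checked here, so they may not be 4 separate measurements.

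With YE the levels of these 4 were much lower. In YE-1h they stood at 1.89-fold (c11942_Smj-1h_g1_i1, 1.12 to 3.45) to 2.38-fold (SmiContig11882, 1.50 to 3.85) over the control, with overlapping intervals. In YE-12h SmiContig11882 was 2.74-fold over the control (1.76 to 4.42). With library totals it was the only one of the 38 to pass 2-fold in all 4 elicited libraries (0.891% of all unigenes). With TMM scaling 5 of the 38 did so, the others being SmiContig28345, SmiContig28346, c15042_Smj-6h_g1_i1 and c23388_Smj-1h_g3_i7. The share of all unigenes doing so with TMM scaling was not counted. SmiContig28345 and SmiContig28346 are better read as 1 measurement, for the reason given below. At the other end, c11942_Smj-1h_g1_i1 was at 0.513 of the control in YE-12h, on 15 reads and with an interval of 0.246 to 1.08. SmiContig27087 was at 1.06 (0.506 to 2.19) and c23388_Smj-1h_g3_i7 at 1.98 (1.26 to 3.28) in YE-12h. The second listed unigene of the Trinity gene of c23388_Smj-1h_g3_i7, c23388_Smj-1h_g3_i9, was far flatter. Its RPKM was 4.59 at 1 h and 3.03 at 6 h of MeJA, and 2.05 at 1 h and 2.80 at 12 h of YE, against 2.09 in the control, and its fold change in MeJA-1h was 2.19 (1.45 to 3.30).

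**Figure D2:**
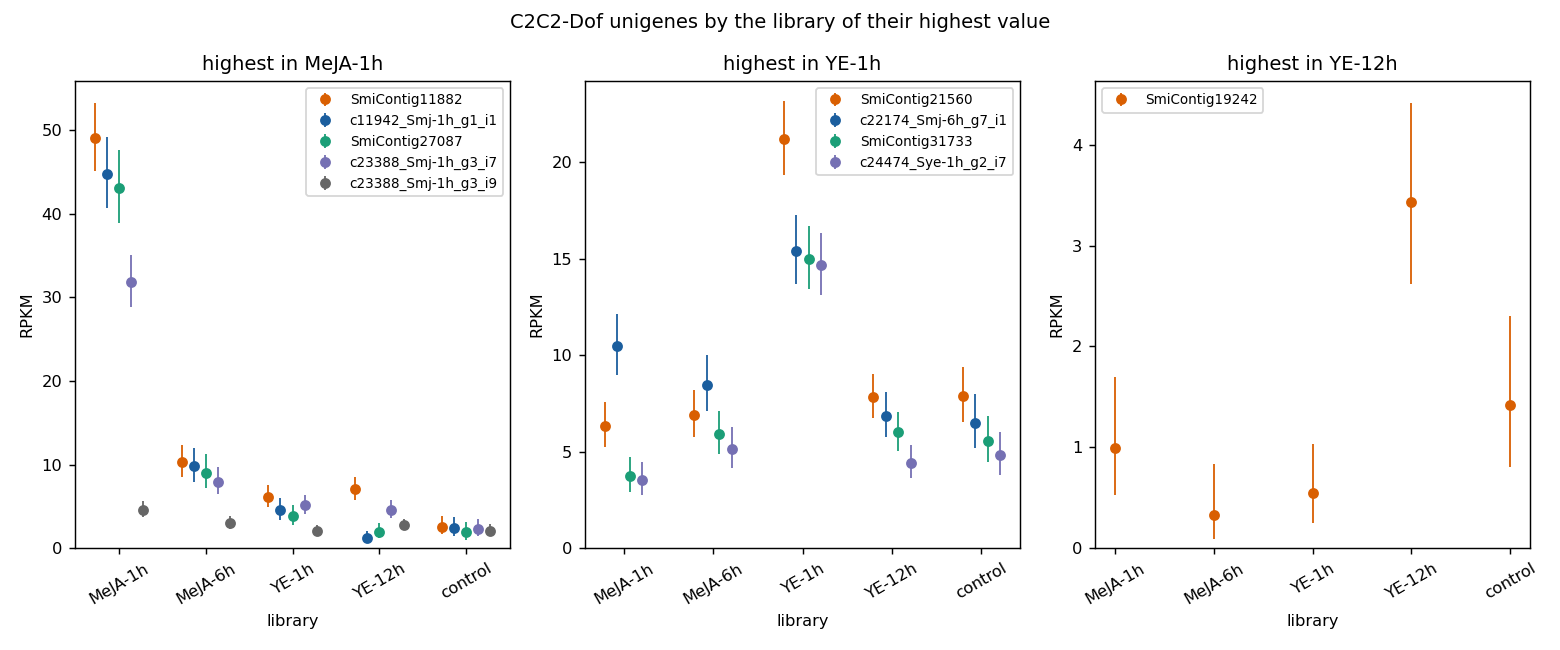
RPKM of the 10 C2C2-Dof unigenes in the 5 libraries, in panels by the library of the highest value, with exact 95% intervals of the read count as bars and a separate scale for each panel. SmiContig11882, c11942_Smj-1h_g1_i1, SmiContig27087 and c23388_Smj-1h_g3_i7 lie between 31.9 and 49.0 in MeJA-1h and between 1.88 and 2.58 in the control.

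A further 4 C2C2-Dof unigenes were highest in YE-1h and under 2-fold over the control in the other libraries. SmiContig21560 had an RPKM of 6.34 at 1 h and 6.91 at 6 h of MeJA, and 21.2 at 1 h and 7.84 at 12 h of YE, against 7.88 in the control. SmiContig31733 had 3.74, 5.92, 15.0 and 6.01 in the same order, against 5.54 in the control. In both, YE-1h was far above the other libraries, none of which exceeded the control by more than 1.08-fold. For c24474_Sye-1h_g2_i7 the values were 3.53 at 1 h and 5.13 at 6 h of MeJA, and 14.7 at 1 h and 4.44 at 12 h of YE, against 4.81 in the control. For c22174_Smj-6h_g7_i1 they were 10.5, 8.48, 15.4 and 6.86 in the same order, against 6.50 in the control. The fold change in YE-1h was 3.05 (2.40 to 3.99) for c24474_Sye-1h_g2_i7, 2.71 (2.13 to 3.45) for SmiContig31733, 2.69 (2.21 to 3.32) for SmiContig21560 and 2.37 (1.88 to 3.07) for c22174_Smj-6h_g7_i1. In MeJA-1h the first 3 of these lay below the control, at 0.734 for c24474_Sye-1h_g2_i7, 0.674 (0.485 to 0.930) for SmiContig31733 and 0.805 for SmiContig21560, while c22174_Smj-6h_g7_i1 lay above it at 1.61 (1.25 to 2.12). Over the libraries c24474_Sye-1h_g2_i7 stood at 0.739 to 0.978 of SmiContig31733 and at 0.557 to 0.742 of SmiContig21560. Whether these 3 share reads or stand for separate genes was not checked here.

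SmiContig19242 was the remaining C2C2-Dof unigene and the only one of the 38 with its highest value in YE-12h. Its RPKM was 0.990 at 1 h and 0.328 at 6 h of MeJA, and 0.543 at 1 h and 3.43 at 12 h of YE, against 1.42 in the control, on 13, 4, 9, 60 and 16 reads. It was 2.42-fold over the control in YE-12h (1.40 to 4.59), and at 0.384 of it in YE-1h (0.154 to 0.950). It was also the only zinc finger unigene more than 2-fold higher in YE-12h than in YE-1h, by 6.31-fold (3.08 to 14.3).

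Among the 21 C2H2 unigenes, 10 were highest in YE-1h (22.3% of all unigenes), 9 in MeJA-6h (14.5%) and 2 in MeJA-1h (12.3%). Over 2-fold above the control were 8 in MeJA-1h and 13 in MeJA-6h, and 13 in YE-1h and 4 in YE-12h. SmiContig26309 was the most abundant of them, with an RPKM of 140 at 1 h and 65.9 at 6 h of MeJA, and 232 at 1 h and 82.1 at 12 h of YE, against 62.0 in the control. It was 3.75-fold (3.48 to 4.04) over the control in YE-1h and 2.25-fold (2.08 to 2.44) in MeJA-1h, with MeJA-6h at 1.06. SmiContig29042 had a like order of libraries at a lower level, with 15.7 at 1 h and 9.56 at 6 h of MeJA, and 33.3 at 1 h and 10.1 at 12 h of YE, against 7.82 in the control. Its folds were 4.26 (3.26 to 5.63) in YE-1h and 2.01 (1.49 to 2.73) in MeJA-1h, the second just inside the limit of 2.

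SmiContig28345 and SmiContig28346 had the largest fold changes of the C2H2 unigenes in YE-1h. SmiContig28346 had an RPKM of 75.8 at 1 h and 37.4 at 6 h of MeJA, and 134 at 1 h and 25.8 at 12 h of YE, against 14.1 in the control. SmiContig28345 had 74.5, 37.2, 130.2 and 25.2 in the same order, against 13.9 in the control. The ratio of SmiContig28345 to SmiContig28346 stayed between 0.973 and 0.996 over the 5 libraries. With neighbouring names and read counts this alike, reads of near-identical sequences may have been split between them, and they are better read as 1 measurement. The fold over the control was 9.50 (8.29 to 11.0) in YE-1h and 5.38 (4.67 to 6.26) in MeJA-1h for SmiContig28346. In the later libraries it was lower, at 2.65 in MeJA-6h and 1.83 in YE-12h.

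SmiContig29443 and SmiContig15384 were the C2H2 unigenes with their highest values in MeJA-1h. SmiContig29443 had an RPKM of 52.6 at 1 h and 26.0 at 6 h of MeJA, and 20.8 at 1 h and 13.6 at 12 h of YE, against 8.71 in the control. Every elicited library was above the control, and MeJA-1h was 6.04-fold over it (4.81 to 7.77). SmiContig15384 had 45.4 at 1 h and 15.2 at 6 h of MeJA, and 38.4 at 1 h and 15.5 at 12 h of YE, against 11.8 in the control. Here both 1 h libraries were high, at 3.85-fold (3.26 to 4.60) in MeJA-1h and 3.26-fold (2.75 to 3.89) in YE-1h, and both later libraries were within 1.32-fold of the control.

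**Figure D3:**
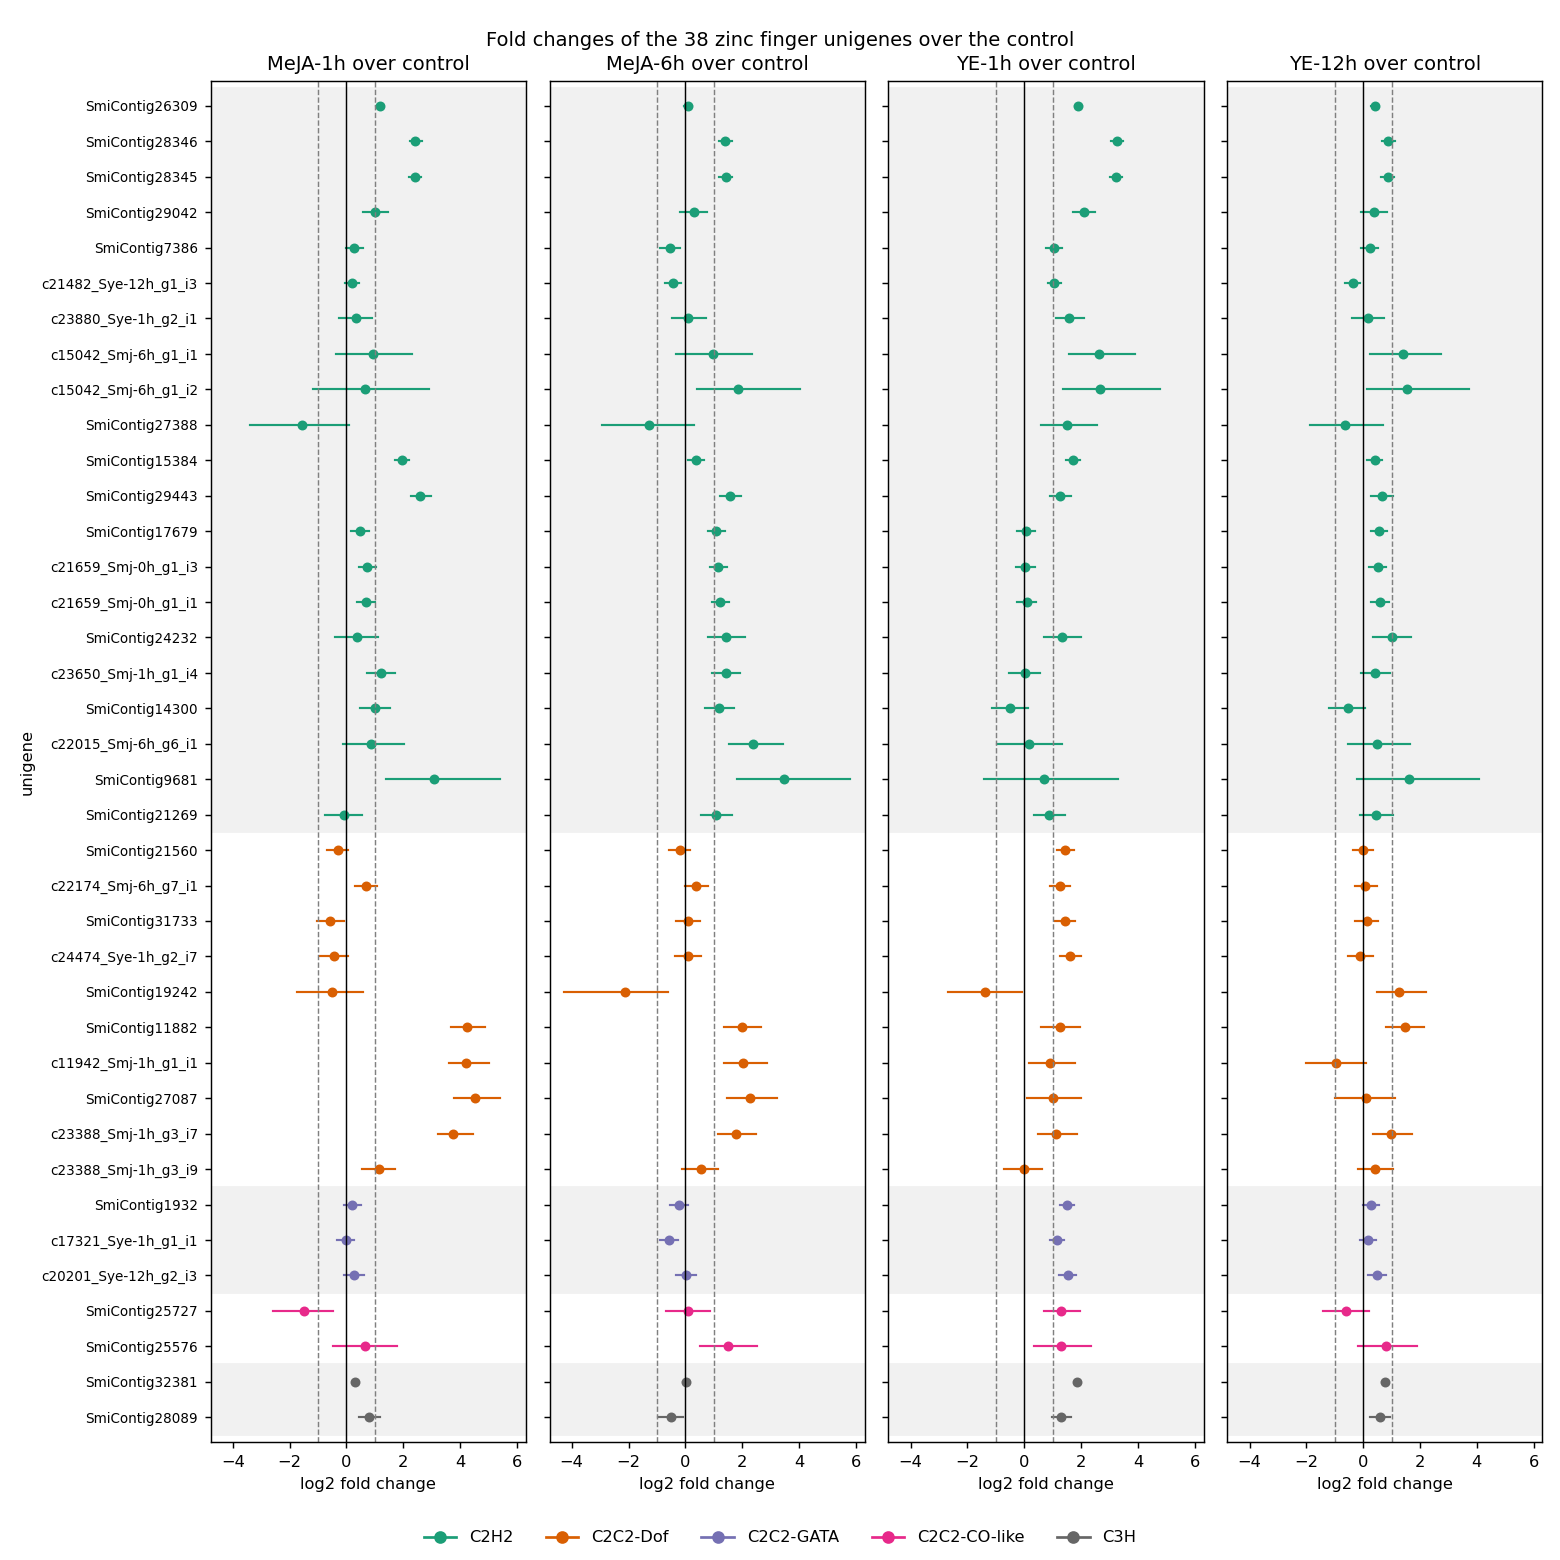
Log2 fold changes over the control of the 38 zinc finger unigenes in MeJA-1h, MeJA-6h, YE-1h and YE-12h, with exact 95% intervals of counting error as bars, dashed lines at 2-fold and 0.5, and colours for families. Values right of the upper dashed line number 13, 18, 27 and 6 in the 4 panels.

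A set of C2H2 unigenes was highest in MeJA-6h and under 2-fold over the control in both YE libraries. The 6 unigenes that passed 2-fold in MeJA-6h alone with library totals (1.68% of all unigenes) were all C2H2. With TMM scaling only c21659_Smj-0h_g1_i1 and SmiContig17679, 2 of the 6, still passed in MeJA-6h alone, a share not counted over all unigenes. SmiContig14300, c22015_Smj-6h_g6_i1 and c21659_Smj-0h_g1_i3 then also passed in MeJA-1h, and SmiContig21269 in YE-1h. The clearest was c22015_Smj-6h_g6_i1, with an RPKM of 2.32 at 1 h and 6.64 at 6 h of MeJA, and 1.41 at 1 h and 1.78 at 12 h of YE, against 1.27 in the control. It was 5.23-fold over the control in MeJA-6h (2.90 to 10.9), on 76 reads against 12 in the control. SmiContig14300 had 4.52 at 1 h and 5.16 at 6 h of MeJA, and 1.60 at 1 h and 1.55 at 12 h of YE, against 2.27 in the control. Both MeJA libraries of SmiContig14300 were above the control and both YE libraries below it, with folds of 1.99 (1.39 to 2.87) in MeJA-1h and 2.28 (1.61 to 3.29) in MeJA-6h, and of 0.709 (0.455 to 1.09) in YE-1h and 0.683 (0.436 to 1.04) in YE-12h.

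Of those 6, c21659_Smj-0h_g1_i1, c21659_Smj-0h_g1_i3 and SmiContig17679 followed each other closely. The RPKM of c21659_Smj-0h_g1_i3 was 15.7 at 1 h and 20.9 at 6 h of MeJA, and 9.65 at 1 h and 13.4 at 12 h of YE, against 9.45 in the control. For c21659_Smj-0h_g1_i1 it was 13.8, 20.2, 9.13 and 12.9 in the same order, against 8.65 in the control. The ratio of c21659_Smj-0h_g1_i3 to c21659_Smj-0h_g1_i1, which the assembler placed in 1 gene, stayed between 1.03 and 1.13. SmiContig17679 had 14.5, 22.2, 10.8 and 15.3 in the same order, against 10.5 in the control, and its ratio to c21659_Smj-0h_g1_i1 was between 1.05 and 1.21. Whether the 3 share reads or stand for separate genes was not checked here, so they may not be 3 separate measurements. All 3 were 2.13-fold to 2.33-fold over the control in MeJA-6h and within 1.06-fold of it in YE-1h. In YE-12h they were above it, at 1.42 (1.15 to 1.76) for c21659_Smj-0h_g1_i3, 1.50 (1.21 to 1.86) for c21659_Smj-0h_g1_i1 and 1.46 (1.19 to 1.79) for SmiContig17679. SmiContig21269, the sixth, had 1.49 at 1 h and 3.37 at 6 h of MeJA, and 2.94 at 1 h and 2.16 at 12 h of YE, against 1.59 in the control, and so was also above the control in YE-1h, by 1.85-fold (1.27 to 2.73).

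Both MeJA libraries were high for a further pair of C2H2 unigenes. SmiContig9681 had an RPKM of 3.93 at 1 h and 5.18 at 6 h of MeJA, and 0.761 at 1 h and 1.43 at 12 h of YE, against 0.464 in the control, on 30, 39, 7, 14 and 3 reads. Its fold of 11.0 in MeJA-6h has an interval of 3.51 to 55.8, and its fold of 3.03 in YE-12h one of 0.857 to 16.7, since the control rests on 3 reads. The level of c23650_Smj-1h_g1_i4 was 6.05 at 1 h and 6.99 at 6 h of MeJA, and 2.64 at 1 h and 3.51 at 12 h of YE, against 2.62 in the control. It was 2.31-fold (1.66 to 3.28) over the control in MeJA-1h and 2.67-fold (1.92 to 3.76) in MeJA-6h, while YE-1h was at 1.01 (0.687 to 1.48).

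YE-1h alone passed 2-fold for 14 of the 38 (3.44% of all unigenes), 4 of them C2H2. SmiContig7386 had an RPKM of 10.2 at 1 h and 5.75 at 6 h of MeJA, and 17.3 at 1 h and 9.87 at 12 h of YE, against 8.42 in the control. For c21482_Sye-12h_g1_i3 the values were 6.06, 3.92, 11.1 and 4.13 in the same order, against 5.33 in the control. Of the largest folds of the 38, these 2 were the nearest to the limit, with values in YE-1h of 2.05 (1.70 to 2.50) for SmiContig7386 and 2.08 (1.79 to 2.43) for c21482_Sye-12h_g1_i3, and the lower bounds of both were under 2. For c23880_Sye-1h_g2_i1 the RPKM was 3.62 at 1 h and 3.09 at 6 h of MeJA, and 8.64 at 1 h and 3.19 at 12 h of YE, against 2.87 in the control. SmiContig27388 had 0.528, 0.645, 4.41 and 1.00 in the same order, against 1.56 in the control, on 5, 6, 49, 12 and 12 reads. Its other 3 elicited libraries were all below the control, while those of c23880_Sye-1h_g2_i1 lay within 1.26-fold of it.

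The last 3 C2H2 unigenes were above the control with both elicitors. For c15042_Smj-6h_g1_i1 the RPKM was 2.53 at 1 h and 2.57 at 6 h of MeJA, and 8.16 at 1 h and 3.49 at 12 h of YE, against 1.31 in the control. Its partner in the same assembled gene, c15042_Smj-6h_g1_i2, had 1.46, 3.32, 5.84 and 2.71 in the same order, against 0.926 in the control. In YE-1h the fold was 6.23 (2.96 to 14.8) for c15042_Smj-6h_g1_i1 and 6.30 (2.54 to 27.1) for c15042_Smj-6h_g1_i2, on 70 and 40 reads, against 8 and 4 in the control. SmiContig24232 had 3.85 at 1 h and 7.95 at 6 h of MeJA, and 7.48 at 1 h and 5.96 at 12 h of YE, against 2.98 in the control. It passed 2-fold in MeJA-6h, YE-1h and, at 2.00 (1.28 to 3.21), only just in YE-12h.

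All 3 C2C2-GATA unigenes were more than 2-fold over the control in YE-1h and in no other library. SmiContig1932 had an RPKM of 9.20 at 1 h and 6.86 at 6 h of MeJA, and 22.7 at 1 h and 9.63 at 12 h of YE, against 8.00 in the control. For c20201_Sye-12h_g2_i3 the values were 7.21, 6.06, 17.3 and 8.37 in the same order, against 6.01 in the control. For c17321_Sye-1h_g1_i1 they were 8.81, 5.98, 19.9 and 10.0, against 8.98 in the control. The fold in YE-1h was 2.84 (2.38 to 3.40) for SmiContig1932, 2.87 (2.36 to 3.55) for c20201_Sye-12h_g2_i3 and 2.21 (1.87 to 2.64) for c17321_Sye-1h_g1_i1. The lengths implied by reads and RPKM were within a few bases of each other, from 1492 to 1496 bp, and over the libraries the ratio of SmiContig1932 to c20201_Sye-12h_g2_i3 ran from 1.13 to 1.33, that of c17321_Sye-1h_g1_i1 to SmiContig1932 from 0.871 to 1.12 and that of c17321_Sye-1h_g1_i1 to c20201_Sye-12h_g2_i3 from 0.987 to 1.50. Whether the 3 share reads or stand for separate genes was not checked here.

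The C2C2-CO-like unigenes both passed 2-fold in YE-1h but differed with MeJA. SmiContig25727 had an RPKM of 1.00 at 1 h and 3.02 at 6 h of MeJA, and 6.99 at 1 h and 1.88 at 12 h of YE, against 2.85 in the control. It was at 0.351 of the control in MeJA-1h (0.165 to 0.725) and 2.45-fold over it in YE-1h (1.62 to 3.93). SmiContig25576 had 2.17 at 1 h and 3.88 at 6 h of MeJA, and 3.42 at 1 h and 2.44 at 12 h of YE, against 1.39 in the control. It was above the control in every elicited library, by 2.79-fold (1.41 to 5.78) in MeJA-6h and 2.46-fold (1.27 to 5.13) in YE-1h, on 12 control reads.

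The C3H unigenes were likewise highest in YE-1h. SmiContig32381, the unigene of the 38 with the most reads, had an RPKM of 57.9 at 1 h and 47.5 at 6 h of MeJA, and 170 at 1 h and 79.1 at 12 h of YE, against 46.9 in the control. Its fold was 3.62 (3.43 to 3.82) in YE-1h and 1.69 (1.59 to 1.79) in YE-12h, and MeJA-6h was level with the control at 1.01 (0.946 to 1.08). SmiContig28089 had 9.01 at 1 h and 3.63 at 6 h of MeJA, and 12.7 at 1 h and 7.80 at 12 h of YE, against 5.18 in the control. In YE-1h SmiContig28089 was 2.45-fold (1.94 to 3.10) over the control, and in MeJA-1h 1.74-fold (1.35 to 2.24). In MeJA-6h it was below the control at 0.701 (0.512 to 0.950).

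The 2 elicitors were set side by side at 1 h, the only time they share. In MeJA-1h over YE-1h, 9 of the 38 were more than 2-fold higher (7.97% of all unigenes) and 13 were under 0.5 (12.0%). The C2C2-Dof family split, with 5 of its 10 unigenes more than 2-fold higher in MeJA-1h and 3 under 0.5. SmiContig27087 was 11.3-fold higher in MeJA-1h than in YE-1h (8.29 to 16.4), and c24474_Sye-1h_g2_i7 was at 0.240 (0.182 to 0.311). Among C2H2 unigenes, SmiContig9681 was 5.17-fold higher in MeJA-1h (2.19 to 13.7) and SmiContig27388 was at 0.120 (0.0376 to 0.302). All 3 C2C2-GATA unigenes were under 0.5, between 0.405 and 0.443. Since unigenes entered the listing by a high value in some of these libraries, the counts describe the listing and were not tested.

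**Figure D4:**
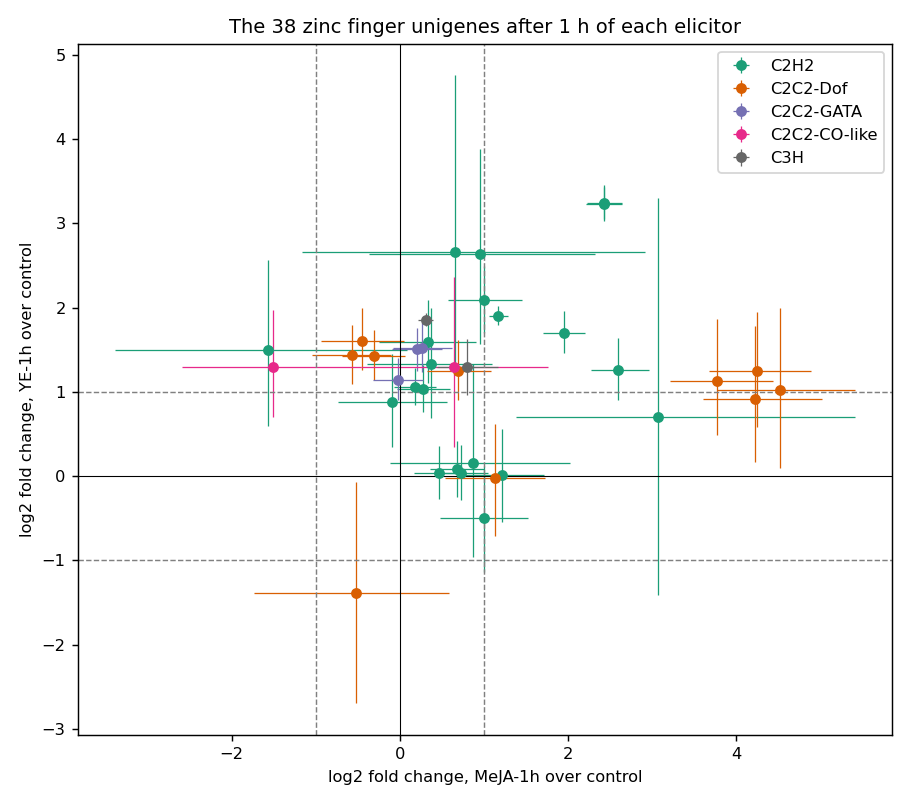
Log2 fold change over the control in MeJA-1h (x axis) and in YE-1h (y axis) of the 38 zinc finger unigenes, coloured by family, with exact 95% intervals of counting error and dashed lines at 2-fold and 0.5; both axes share the control library. The 4 C2C2-Dof unigenes with the largest MeJA-1h values lie at the far right, between 3.77 and 4.52, with YE-1h values between 0.92 and 1.25.

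Over all 4 elicited libraries, 13 unigenes passed 2-fold with both elicitors (4.44% of all unigenes), 16 with YE alone (5.16%) and 9 with MeJA alone (5.83%). With TMM scaling the numbers were 17, 14 and 7, while the shares given are those with library totals. As every one of the 38 had to pass somewhere to be listed, nothing is read from their excess over these shares. The 9 with MeJA alone were 7 C2H2 and 2 C2C2-Dof unigenes, and the 16 with YE alone included all 3 C2C2-GATA and both C3H unigenes. With TMM scaling the C3H unigene SmiContig28089 also passed in MeJA-1h, and the C2C2-Dof unigene c11942_Smj-1h_g1_i1 in YE-1h. The times differ between the elicitors apart from 1 h, and all of these counts rest on the same control library. In 23 of the 38 the control was the lowest of the 5 libraries, against 9.64% of all unigenes.

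YE-12h was mostly lower than YE-1h, and was above it for 9 of the 38. MeJA-6h was above MeJA-1h for 17 of the 38. The matching shares of all unigenes were not counted, and their median ratios are given below. In YE-12h, 19 of the 38 were under 0.5 of YE-1h (9.35% of all unigenes) and only SmiContig19242 was more than 2-fold higher (5.91%). The lowest ratios of YE-12h to YE-1h were 0.193 for SmiContig28346 (0.176 to 0.210), 0.194 for SmiContig28345 (0.177 to 0.212) and 0.227 for SmiContig27388 (0.111 to 0.437). Of the 27 unigenes over 2-fold in YE-1h, 4 were also over 2-fold in YE-12h: SmiContig24232, c15042_Smj-6h_g1_i1, c15042_Smj-6h_g1_i2 and SmiContig11882. This overlap was not counted over all unigenes, so whether 4 of 27 is few for these libraries is not known. In MeJA-6h, 11 were under 0.5 of MeJA-1h (7.85%) and 5 were more than 2-fold higher (6.25%). The 5 were SmiContig24232 (2.07), SmiContig21269 (2.27), c15042_Smj-6h_g1_i2 (2.28), c22015_Smj-6h_g6_i1 (2.86) and the CO-like SmiContig25727 (3.01), and the 4 Dof unigenes described first had the lowest ratios. The median log2 ratio of the 38 was -1.02 for YE-12h over YE-1h and -0.27 for MeJA-6h over MeJA-1h, beside -0.02 and 0.03 over all unigenes. Because 27 unigenes were over 2-fold in YE-1h and 13 in MeJA-1h, lower later values are partly what the choice of unigenes fixes. The 2 elicitors therefore cannot be compared by these ratios.

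**Figure D5:**
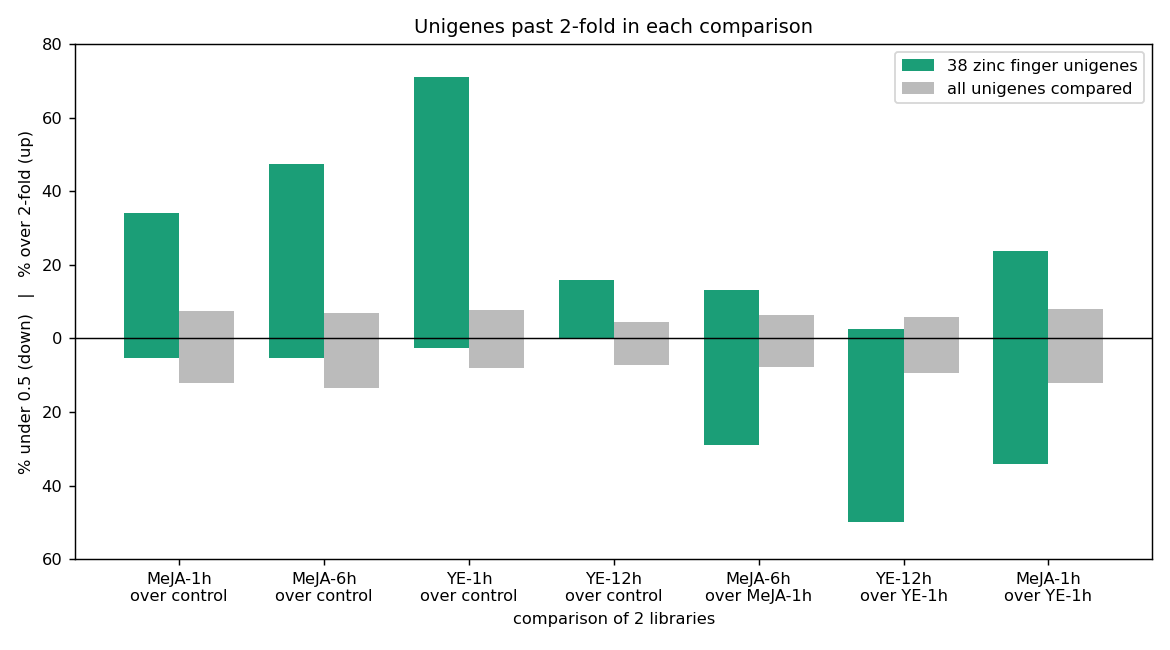
Share (%) of the 38 zinc finger unigenes and of all unigenes compared that were more than 2-fold higher (bars up) or under 0.5 (bars down) in each of 7 comparisons of 2 libraries. In YE-1h over control 27 of 38 and 7.80% of all unigenes point up, and in YE-12h over YE-1h 19 of 38 and 9.35% point down.

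Many folds were close to 2 within their counting error. The lower bound of the interval was over 2 for 10 of the 13 unigenes over 2-fold in MeJA-1h and 9 of 18 in MeJA-6h, and for 14 of 27 in YE-1h and none of 6 in YE-12h. For the largest fold of each unigene, the lower bound was over 2 in 21 of 38.

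Several of the 38 are sequences of 1 assembled gene. By their names, 15 were transcripts of single Trinity assemblies, whose name carries the library assembled and not the library of the level, and 23 were contigs merged over assemblies. The genes c21659_Smj-0h_g1, c15042_Smj-6h_g1 and c23388_Smj-1h_g3 each held 2 of the unigenes, so that 35 remained when each was counted once. Among all Trinity genes of the 38, c24474_Sye-1h_g2, c23650_Smj-1h_g1 and c21659_Smj-0h_g1 together held 4 further transcripts outside the listing. Of these 4 transcripts, 3 were over 2-fold above the control in at least 1 elicited library as well. The C2C2-Dof gene of c24474_Sye-1h_g2_i7 had c24474_Sye-1h_g2_i4, with an RPKM of 6.36 at 1 h and 4.18 at 6 h of MeJA, and 20.1 at 1 h and 5.71 at 12 h of YE, against 2.97 in the control. Its fold in YE-1h of 6.78 (5.39 to 8.66) was larger than the 3.05 of the listed transcript. The other transcript, c24474_Sye-1h_g2_i6, was 2.81-fold over the control in YE-1h (2.08 to 3.94). In the C2H2 gene of c23650_Smj-1h_g1_i4, c23650_Smj-1h_g1_i1 was 3.07-fold over the control in MeJA-1h (1.83 to 5.40). The fourth, c21659_Smj-0h_g1_i2, reached 1.63-fold in MeJA-6h (1.34 to 2.00) and so did not pass the limit that its listed partners had passed.

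The zinc finger unigenes over 2-fold made up 34.2% of the 38 in MeJA-1h and 71.1% in YE-1h, and the other 337 listed transcription factors are given beside them. Of these, 194 of 329 compared were over 2-fold in MeJA-1h and 156 of 334 in MeJA-6h, and 170 of 331 in YE-1h and 80 of 332 in YE-12h. WRKY factors, a family known from defence, numbered 59 in the listing and had 34, 18, 48 and 20 over 2-fold in the same order. The 4 listed Tify unigenes, the family of the jasmonate repressors, had 4, 4, 3 and 1. All these lists were chosen by the same folds, and the differences between them were not tested.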

How the data were processed

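RNA was sequenced on the Illumina HiSeq platform in 1 library for each of 5 conditions, and each library was made from the mixed RNA of 3 replicate samples. The submitters' protocol text names another tissue and another library kit than the methods, which describe hairy roots, and was not followed there. The authors filtered the reads and assembled unigenes with Trinity without a genome. The counts of reads per unigene were deposited by the authors as whole numbers without normalization, and low values give reason to think that decimals of estimated counts were dropped. The deposited RPKM values are the authors' scaling of those reads to unigene length and library size. The counting program is not given in the sources used here. Columns left unused numbered 0.

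The members and the lists were chosen with earlier results of these data known. Names and families came from the study's listing of transcription factors. In that listing the control and YE-12h columns held each other's deposited values for 29 of the 38 unigenes and matched in neither order for 9, so every value was taken from the deposited tables. All 38 members were named, and outside them only further transcripts of the same Trinity genes. A reference table of 42046 genes matched 0 unigene names, and no unigene sequence was used here.

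A fold change was the ratio of 2 RPKM values, with a library of 3 reads or fewer set to 3 reads, and called over 2 or under 0.5. Its 95% interval is an exact (Clopper-Pearson) interval for the share of reads and covers counting error only. With 1 library per condition no main result rests on a test, and any batch cannot be told apart from the condition. Alternatives were TMM scaling by edgeR 4.0.16, the size factors of DESeq2 1.42.0 in R 4.3.3, a pseudocount of 1 RPKM, at least 30 reads summed, an interval without 1, an FDR under 0.01 in edgeR's binomTest, which compares the reads of 2 libraries and not the conditions, and summing of Trinity genes. The scripts were tested on simulated data. The rest used scipy 1.17.1, pandas 2.3.3 and numpy 2.4.6 in Python 3.11.15, with figures by matplotlib 3.10.9.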

Additional observations from a re-analysis of the deposited data

Results flagged for a closer look

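For 3 unigenes a MeJA library and a YE library lay past opposite limits against the control. With 1 library per condition the difference was not tested, and how many of all unigenes did so was not counted. The C2H2 unigene SmiContig27388 was at 0.338 of the control in MeJA-1h (95% interval 0.0959 to 1.06, which includes 1) and at 2.82-fold in YE-1h (1.50 to 5.93), with 5 and 49 reads against 12 in the control. The CO-like unigene SmiContig25727 was at 0.351 in MeJA-1h (0.165 to 0.725) and at 2.45-fold in YE-1h (1.62 to 3.93), with 12 and 99 reads against 28. The Dof unigene SmiContig19242 was at 0.231 in MeJA-6h (0.0516 to 0.658) and at 2.42-fold in YE-12h (1.40 to 4.59), with 4 and 60 reads against 16, and these are unlike times. In YE-1h SmiContig19242 was also under 0.5, at 0.384 (0.154 to 0.950) on 9 reads, so its YE libraries pointed in opposite directions as well. With a pseudocount of 1 RPKM none of the 3 was under 0.5. The log2 fold changes were then -0.75 for SmiContig27388 and -0.95 for SmiContig25727 in MeJA-1h, and -0.86 for SmiContig19242 in MeJA-6h.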

How the results depend on the processing

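Of 91 values of the 13 counts under the 7 alternatives, 81 stayed within 1.5 times of the count reported and 10 did not. With a pseudocount of 1 RPKM, 1 unigene in place of 6 was over 2-fold in YE-12h, and 0 in place of 2, 2 and 1 were under 0.5 in MeJA-1h, MeJA-6h and YE-1h. With the read test at an FDR under 0.01, 3 were over 2-fold in YE-12h, and 1, 1 and 0 were under 0.5 in MeJA-1h, MeJA-6h and YE-1h. Where the interval had to exclude 1, 1 was under 0.5 in MeJA-1h and 1 in MeJA-6h. Of 152 fold changes of single unigenes over the control, 14 moved beyond their counting interval with TMM scaling and 14 with DESeq2 size factors, and 0 with the pseudocount. Medians of the 38 and the library of the highest value kept their values within the limits set. No paired analysis was possible because each condition had 1 library, and no library could be left out of a group for the same reason. Calls under 0.5 of the control rest on few reads, with 4 to 12 in the elicited library for SmiContig19242, SmiContig27388 and SmiContig25727.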

Other observations

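The study's listing held 10 transcription factors of further families that bind zinc (zf-HD, PLATZ, LIM and SRS). Of those that could be compared with the control, 2 of 9 were more than 2-fold higher in MeJA-1h and 6 of 9 in MeJA-6h, and 6 of 10 in YE-1h and 3 of 10 in YE-12h. Of all unigenes compared, 7.59%, 6.88%, 7.80% and 4.39% were, in the same order, and the 10 had been listed by the same folds. Their median log2 fold change was 0.50 and 1.54 in MeJA-1h and MeJA-6h and 1.29 and 0.68 in YE-1h and YE-12h, beside 0.68, 0.77, 1.27 and 0.43 for the 38 zinc finger unigenes. Between the MeJA libraries, 4 of 8 were more than 2-fold higher in MeJA-6h than in MeJA-1h and none was under 0.5. Of the 38 these numbers were 5 and 11, and of all unigenes the shares were 6.25% and 7.85%.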
